A study of Mus musculus with 12 samples.

Results

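Gfi1, Irf8, Spi1, Klf4, Id2, Id1 and Egr4 are 7 mouse genes that encode regulators of myeloid cell fate, chosen by name among 37530 genes with deposited exon counts. Their levels are described here in all 12 libraries of an RNA sequencing study of blood stem and progenitor cells. The 4 groups of 3 libraries are MLL-ENL preGM, WT preGM, MLL-ENL HSC and WT HSC. WT cells are from C57bl/6 WT mice; MLL-ENL cells are from the strain labelled Col1a1-MLL/ENL, named for a fusion of MLL with ENL found in leukaemia. The gate for stem cells (HSC) was Lin-Sca1+ckit+CD48-CD150+, and that for the granulocyte and macrophage precursors (preGM) took Kit-positive cells negative for lineage antigens, Sca1, CD150, CD105, CD41 and CD16/32. In all 4 groups, WT too, the sorted cells then spent 48 h in OptiMEM and 10% serum with doxycycline (1 µg/ml) and cytokines: IL3 and G-CSF, each at 5 ng/ml, and SCF at 10 to 50 ng/ml. The levels thus describe cultured cells, and the gates describe them before culture. Since doxycycline was also given to every MLL-ENL culture, an effect of the fusion and any other difference between the strains cannot be told apart. Nothing states that replicates are separate animals or cultures, so p-values reflect how far these libraries spread, which may be technical variation.

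Spi1 encodes PU.1, an ETS factor that opens the enhancers of myeloid genes and at high levels favours macrophages. PU.1 recruits IRF8, an interferon regulatory factor needed for monocytes and dendritic cells, while the zinc-finger repressor GFI1 recruits histone deacetylases and the demethylase LSD1 and drives neutrophil development. GFI1 and the macrophage programme of EGR and NAB factors restrain each other, KLF4 acts in monocyte differentiation downstream of PU.1 and IRF8, and ID1 and ID2 block E-protein transcription factors by forming dimers that cannot bind DNA. EGR4 belongs to the EGR family of immediate early zinc-finger factors.

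Gene counts per library were 38.5 to 50.3 megacounts (counts divided by 1e6) in MLL-ENL preGM, 34.7 to 44.5 in WT preGM, 19.0 to 23.4 in MLL-ENL HSC and 14.5 to 18.2 in WT HSC. Levels are given as CPM, counts scaled to 1e6 per library after TMM scaling. A single count was worth 0.0188 to 0.0615 CPM, depending on the library. MLL-ENL preGM replicate 1 and WT preGM replicate 2 stood apart from the other libraries of their groups on the second principal component, and every fit was repeated without both. Values without both are given where a call or a value turned on them. Without both, 3367 of all genes had an adjusted p under 0.05 for MLL-ENL against WT in HSC, against 645 with all libraries. Added HSC calls in that fit are read against this general rise. The partner genes of the fusion, Kmt2a (MLL) and Mllt1 (ENL), did not pass the test of MLL-ENL against WT in either cell type (adjusted p under 0.05 over all genes). Kmt2a had 31.2 to 39.8 CPM in MLL-ENL preGM and 17.6 to 28.4 CPM in WT preGM, and 90.5 to 105 CPM in MLL-ENL HSC against 72.5 to 78.9 CPM in WT HSC. Cd48, whose product was absent at the HSC sort, had 4.18 to 6.44 CPM in MLL-ENL HSC and 91.4 to 134 CPM in WT HSC. With a log2 change of -4.29 (adjusted p = 9.52e-06), the cultured HSC groups also differed in this gate antigen. The preGM groups differed in gate antigens too. Of 8 antigen genes of the gates, 2 were higher and 2 lower with MLL-ENL in preGM at that threshold, against 6.78% of all genes in either direction. Over 22 alternatives the lower ones stayed at 2 and the higher ones numbered 0 to 3.

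Of the 7 genes, 6 had enough counts to test, and in preGM each of the 6 was lower in all 3 MLL-ENL libraries than in any WT library. Spi1, Klf4, Id2 and Id1 fell, that is, passed an adjusted p of 0.05 over all 15704 genes tested. Gfi1 and Irf8 did not pass. Of all genes tested, 6.78% passed in this comparison in either direction, 3.71% higher and 3.07% lower. Groups did not overlap for 27.8% of all genes, so the separation of the 6 is read against that share. In HSC, where 4.11% of genes passed, 3.18% higher and 0.923% lower, 1 of the 6 did: Id2, which rose with MLL-ENL.

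**Figure D1:**
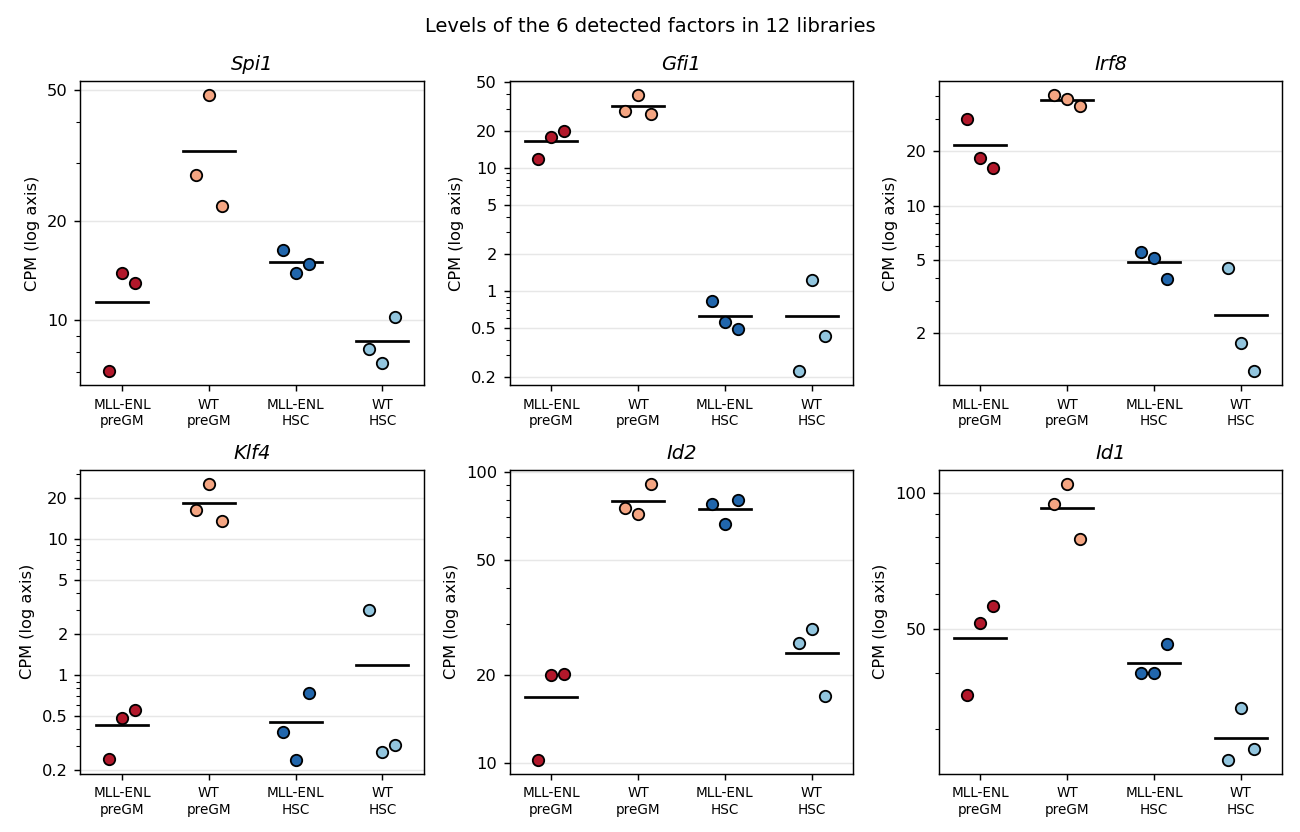
Levels of the 6 detected factors, as CPM on a log axis, in MLL-ENL preGM, WT preGM, MLL-ENL HSC and WT HSC; each point is 1 library and the line is the mean of 3. In every panel the 3 MLL-ENL preGM points lie below the 3 WT preGM points, and Klf4 in MLL-ENL preGM (0.245 to 0.552 CPM) lies near its level in most HSC libraries.

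Spi1 (ENSMUSG00000002111, chromosome 2, 91082390 to 91115756, plus strand, GRCm38) encodes PU.1. It had 7.02, 13.97 and 13.03 CPM in the MLL-ENL preGM libraries, against 27.7, 48.3 and 22.2 CPM in WT preGM. All 3 MLL-ENL preGM libraries were lower, and the 2 libraries that stand apart held the lowest and the highest value. The log2 change was -1.53 ± 0.32 (SE, n = 3 each; adjusted p = 0.00685), a 2.89-fold lower level, and without both of those libraries it was -0.89 (adjusted p = 0.0217). In HSC the order was the other way: 16.3, 13.9 and 14.8 CPM with MLL-ENL, against 8.22, 7.43 and 10.3 CPM in WT. These groups did not overlap either, as for 34.8% of all genes, but the log2 change of 0.80 ± 0.32 did not pass (adjusted p = 0.182); it passed with the HSC groups fitted alone (adjusted p = 0.0274), with limma (0.0404 and 0.0320) and without both preGM libraries that stand apart (0.00657). Within MLL-ENL cells the levels of the 2 cell types overlapped: the highest preGM library, at 13.97 CPM, lay just above the lowest HSC library, at 13.94 CPM.

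The Spi1 count joins transcripts with different starts. Ahead of the 898-base first exon of the main coding transcript (91096096 to 91096993) the annotation holds an exon of 134 bases 13.7 kb upstream (91082390 to 91082523) and one of 497 bases 6.28 kb upstream (91089814 to 91090310). The first starts a coding transcript (ENSMUST00000169852) and a non-coding one (ENSMUST00000131400), and the second belongs to the non-coding transcript alone. The deposited counts are per exon, intron and transcript, so they tie no read to a junction. The annotated junction of the non-coding transcript is shown because it sets that RNA apart from the coding ones: 30 bases of its first exon (chr2:91082494-91082523) in lower case are followed by 30 bases of its second (chr2:91089814-91089843) in capitals, plus strand, from the GENCODE M21 transcripts.
Spi1 upstream junction: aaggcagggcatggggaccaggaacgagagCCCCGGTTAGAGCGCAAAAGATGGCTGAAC

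Together these upstream exons held 371 of 516, 229 of 350 and 261 of 419 Spi1 counts in MLL-ENL HSC, against 101 of 147, 44 of 164 and 67 of 167 in WT HSC. That is a mean share of 66.5 ± 4.90% with MLL-ENL and 45.2 ± 21.4% in WT (SD, n = 3); the groups overlapped, since WT HSC replicate 1 had a share like those of MLL-ENL HSC, and the exact two-sided permutation test gave p = 0.3, with 0.1 the smallest possible for 3 against 3. In preGM the mean shares were close, 32.8 ± 9.91% with MLL-ENL and 34.1 ± 2.57% in WT (exact permutation p = 1.0). Within MLL-ENL cells the share was 21.4 to 39.5% in preGM and 62.3 to 71.9% in HSC, without overlap (exact permutation p = 0.1, the smallest possible, adjusted 0.229 over 16 such tests of exon shares and intron levels).

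Taken apart in a test chosen after the exon counts were seen, the exons from the main coding start onwards had 4.59, 4.82 and 5.59 CPM in MLL-ENL HSC, against 2.57, 5.44 and 6.15 CPM in WT HSC. These groups overlapped fully, with a log2 change of 0.08 ± 0.36 (adjusted p = 0.931). The upstream exons had 11.7, 9.12 and 9.23 CPM in MLL-ENL HSC and 5.64, 1.99 and 4.12 CPM in WT HSC, a log2 change of 1.36 ± 0.45 (adjusted p = 0.111). The difference between the HSC means of Spi1 lay in the upstream exons, mostly in the 497-base one, with 8.0 ± 1.24 CPM in MLL-ENL HSC and 2.95 ± 1.59 CPM in WT HSC (SD, n = 3). In preGM the exons from the coding start onwards had 5.51, 8.45 and 8.14 CPM with MLL-ENL and 18.2, 33.1 and 14.1 CPM in WT. They fell by 1.56 ± 0.36 on the log2 scale (adjusted p = 0.0138), and the upstream exons had a log2 change of -1.47 ± 0.45 (adjusted p = 0.0622). Reads over the 5 exon-free introns of Spi1 came to 3.95 ± 0.281 CPM in MLL-ENL preGM against 8.20 ± 2.99 CPM in WT preGM, without overlap (exact permutation p = 0.1, adjusted 0.229). In HSC these intron levels overlapped, at 5.12 ± 0.952 CPM with MLL-ENL and 4.80 ± 1.45 CPM in WT (exact permutation p = 0.9). These 5 introns leave out the stretch between the 497-base exon and the main coding start. The annotated intron around that stretch, which also spans counted exons, held 628, 450 and 457 counts in MLL-ENL HSC. In WT HSC it held 190, 106 and 111 counts, from smaller libraries. How much of these counts lay outside the exons was not tested.

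**Figure D2:**
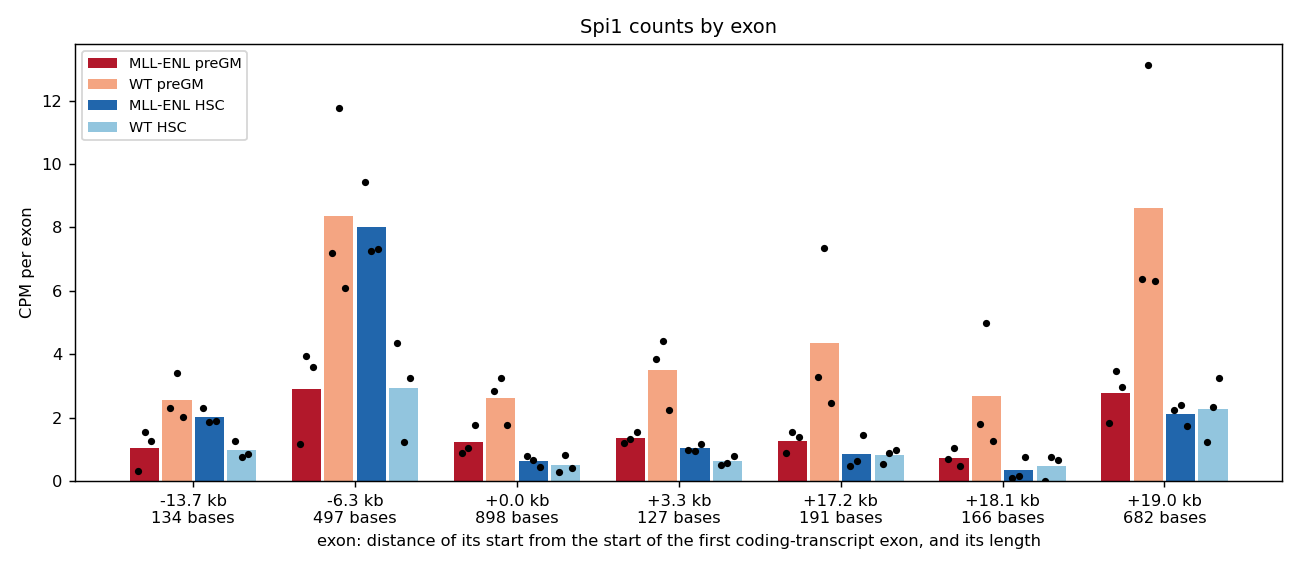
Spi1 CPM in each of its 7 counted exons, ordered along the gene; the axis gives the distance from the start of the main coding transcript's first exon and the exon's length, bars are means of 3 libraries and dots are single libraries. In the 497-base upstream exon MLL-ENL HSC (8.0 CPM) stands beside WT preGM (8.36 CPM), while in the last exon it has 2.12 CPM and WT HSC 2.28 CPM.

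Gfi1 (ENSMUSG00000029275, chromosome 5, 107716657 to 107726036, minus strand), the neutrophil-promoting repressor, had 11.8, 17.7 and 19.7 CPM in MLL-ENL preGM, against 28.7, 39.0 and 27.1 CPM in WT preGM. The highest MLL-ENL library stayed below the lowest WT library. The log2 change of -0.94 ± 0.36 did not pass (adjusted p = 0.129), nor did it under any of the 22 alternatives, with values from -1.10 to -0.55. In HSC Gfi1 was close to absent, with 26, 14 and 14 counts with MLL-ENL and 4, 27 and 7 counts in WT, and the log2 change of -0.05 ± 0.48 could not tell the groups apart (adjusted p = 0.974). The last exon, 1262 bases of 3′ sequence, held 89.7% of the Gfi1 counts in MLL-ENL preGM and 91.2% in WT preGM, so these levels report mainly the 3′ end of the RNA. The Gfi1 introns held 0.637 ± 0.658 CPM in MLL-ENL preGM and 0.846 ± 0.224 CPM in WT preGM, with overlap (exact permutation p = 0.7). Its paralogue Gfi1b, which acts in erythroid cells, platelets and stem cells, had 40.7, 43.2 and 41.4 CPM in MLL-ENL preGM and 17.3, 4.33 and 20.8 CPM in WT preGM. Gfi1b rose by 1.56 on the log2 scale (adjusted p = 0.0272), but did not pass when MLL-ENL preGM replicate 1 (0.0646), MLL-ENL preGM replicate 3 (0.0515) or WT preGM replicate 1 (0.0628) was left out, or with the preGM groups fitted alone (0.124). Without both libraries that stand apart its log2 change was 1.15 (adjusted p = 0.00560).

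Irf8 (ENSMUSG00000041515, chromosome 8, 120736358 to 120756694, plus strand), the monocyte and dendritic cell factor, had 29.7, 18.3 and 16.2 CPM in MLL-ENL preGM and 40.5, 38.4 and 35.3 CPM in WT preGM. The WT libraries lay close together, and MLL-ENL preGM replicate 1, one of the 2 that stand apart, was nearest to them. The log2 change of -0.83 ± 0.35 did not pass (adjusted p = 0.174), and without both libraries that stand apart it was -1.14 (adjusted p = 0.0921). In HSC, Irf8 had 5.54, 5.14 and 3.93 CPM with MLL-ENL and 4.53, 1.77 and 1.23 CPM in WT. WT HSC replicate 1 lay among the MLL-ENL HSC values, the other WT libraries lay below them, and the log2 change of 0.96 ± 0.39 did not pass (adjusted p = 0.191). Without WT HSC replicate 1 it was 1.69 and passed (adjusted p = 0.0192).

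The Irf8 reads differed along the gene. Exons 3 to 8 of the main transcript, which together span 924 bases of coding sequence, held 29, 47 and 41 counts in MLL-ENL HSC but 0, 1 and 2 counts in WT HSC. In preGM they held 534, 53 and 29 counts with MLL-ENL and 298, 99 and 246 counts in WT. The MLL-ENL preGM value rested on replicate 1, which alone exceeded every WT preGM library. The last exon (120754999 to 120756694) had 4.12, 3.07 and 2.19 CPM in MLL-ENL HSC and 3.91, 1.63 and 1.11 CPM in WT HSC, and these overlapped.

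The counted exons before the last include one of 3418 bases, from another transcript, that runs through most of intron 2 of the main transcript. It held 15, 5 and 8 counts in MLL-ENL HSC and 11, 2 and 0 counts in WT HSC. Exons other than the last, this one included, made up 36.7 ± 9.72% of Irf8 counts in MLL-ENL HSC and 10.4 ± 2.97% in WT HSC (SD, n = 3), without overlap (exact two-sided permutation p = 0.1, adjusted 0.229). Tested on their own, a choice made after the exon counts were seen, they had a log2 change of 2.58 ± 0.77 in HSC, which did not pass (adjusted p = 0.0750), and of -0.59 ± 0.59 in preGM (adjusted p = 0.568). The last exon alone gave 0.50 ± 0.37 in HSC (adjusted p = 0.513) and -0.91 ± 0.34 in preGM (adjusted p = 0.128).

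Signs of RNA and library make-up moved with the groups in which these exon shares differ. Over the whole library, intron counts per 100 gene counts were 4.82 to 5.99 in MLL-ENL HSC and 3.74 to 4.12 in WT HSC. Mitochondrial genes took 6.33 to 6.71% of counts in MLL-ENL HSC and 5.398 to 5.92% in WT HSC, and 18727 to 18807 genes had counts in MLL-ENL HSC against 16621 to 17204 in WT HSC, where depth was lower. By the same measure the first replicate of MLL-ENL preGM stood at 3.53, the other MLL-ENL preGM libraries at 1.51 to 1.76 and WT preGM at 1.26 to 2.09. The part of these measures in the exon results for Spi1 and Irf8 was not tested.

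**Figure D3:**
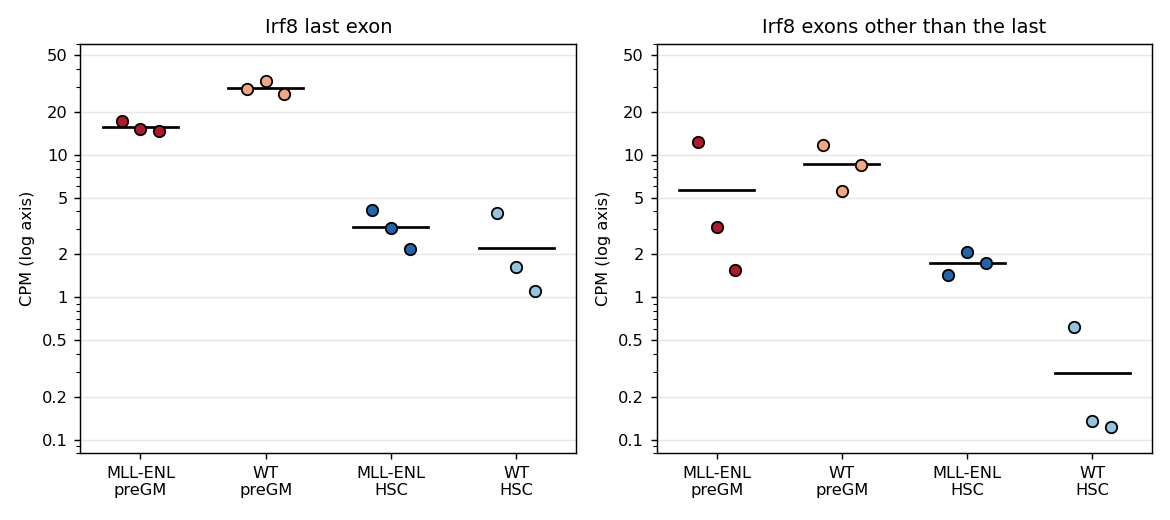
Irf8 CPM on a log axis in its last exon (left) and in all other counted exons (right), per library, with the mean of each group as a line. In the last exon the MLL-ENL HSC and WT HSC points overlap, while in the other exons the MLL-ENL HSC points (1.42 to 2.07 CPM) lie above the WT HSC points (0.123 to 0.615 CPM).

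The balance of Gfi1 to Irf8, neutrophil against monocyte factor, was compared as the log2 ratio of counts per kb of exon. It averaged 0.76 ± 0.86 in MLL-ENL preGM and 0.83 ± 0.27 in WT preGM (SD, n = 3). The difference of -0.08 was smaller than the spread within MLL-ENL preGM (exact two-sided permutation p = 0.9), and leaving out MLL-ENL preGM replicate 1 turned it to 0.41, and leaving out WT preGM replicate 2 to 0.08. Per kb of the longest coding transcript the ratio averaged -0.30 ± 0.86 in MLL-ENL preGM and -0.25 ± 0.26 in WT preGM (SD, n = 3), so which of the factors stood higher in preGM turned with the length used. In HSC the ratio averaged -1.82 ± 0.22 with MLL-ENL and -0.93 ± 1.90 in WT, where the few Gfi1 counts spread it widely (exact permutation p = 0.4). The ratio was higher in preGM than in HSC by 1.76 in WT and by 2.58 with MLL-ENL, without overlap in either, at the smallest p the exact permutation test allows (p = 0.1, adjusted 0.2 over the 4 comparisons).

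Klf4 (ENSMUSG00000003032, chromosome 4, 55527143 to 55532466, minus strand), a zinc-finger factor of monocyte differentiation, had the largest change of the 6 tested genes in preGM. It had 13, 15 and 20 counts in the MLL-ENL preGM libraries, against 545, 550 and 476 counts in WT preGM. As CPM this is 0.245, 0.487 and 0.552 with MLL-ENL and 16.3, 25.6 and 13.6 in WT. The lowest WT library was far above the highest MLL-ENL library, and the gene fell by 5.45 ± 0.75 on the log2 scale, a 43.7-fold lower level (adjusted p = 0.000295). Left out 1 at a time, the 12 libraries gave log2 changes of -5.69 to -5.13, and without both libraries that stand apart the change was -4.83 (adjusted p = 0.00385). In bulk RNA, fewer cells that express a gene and less of its RNA per cell cannot be told apart. In HSC, Klf4 had 12, 6 and 21 counts with MLL-ENL and 54, 6 and 5 counts in WT. A single library, WT HSC replicate 1, held most of the WT counts; the log2 change was -1.37 ± 0.74 with it (adjusted p = 0.341) and 0.66 without it.

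Id2 (ENSMUSG00000020644, chromosome 12, 25093799 to 25097140, minus strand), an inhibitor of E proteins needed for some dendritic and innate lymphoid cells, moved in opposite directions in the 2 cell types. In preGM it had 10.2, 20.0 and 20.3 CPM with MLL-ENL, against 75.1, 71.7 and 91.4 CPM in WT. It fell by 2.24 ± 0.29 on the log2 scale, a 4.72-fold lower level (adjusted p = 0.000171). In HSC it had 77.8, 66.1 and 80.2 CPM with MLL-ENL, against 25.8, 28.9 and 16.9 CPM in WT, and rose by 1.65 ± 0.28, or 3.13-fold (adjusted p = 0.00361). The MLL-ENL HSC libraries thus carried about as much Id2 as the WT preGM libraries. Both calls held under all 22 alternatives, with log2 changes of -2.40 to -1.89 in preGM and 1.46 to 1.83 in HSC.

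Id1 (ENSMUSG00000042745, chromosome 2, 152736251 to 152737410, plus strand), a target of BMP signalling and another E-protein inhibitor, had 35.7, 51.5 and 56.2 CPM in MLL-ENL preGM and 94.7, 105 and 79.3 CPM in WT preGM. It fell by 0.96 ± 0.23 on the log2 scale (adjusted p = 0.0188), a call lost with library size as the only scaling (adjusted p = 0.0713), with limma (0.0787 and 0.0923), with the preGM groups fitted alone (0.134) and without WT preGM replicate 1 (0.0662). In HSC it had 40.02, 39.9 and 46.5 CPM with MLL-ENL and 25.7, 33.4 and 27.1 CPM in WT. These groups did not overlap, and the log2 change of 0.55 ± 0.23 did not pass (adjusted p = 0.208), though it did with the HSC groups fitted alone (adjusted p = 0.0267), with limma on log2(RPKM + 1) (0.0417) and without both preGM libraries that stand apart (0.0108).

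Egr4 (ENSMUSG00000071341, chromosome 6, 85511121 to 85513589, minus strand) was not detectable beyond 1 count, found in MLL-ENL HSC replicate 3. The other 11 libraries had 0 counts, which allows up to 0.0564 to 0.184 CPM in a library (3 counts, counting error only), and it entered no test.

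The promoters of Klf4 and Id2, the genes with the largest falls in preGM, and of Irf8 and Gfi1, the counterparts in the ratio, are shown for their make-up. They are 300-base RefSeq sequences on GRCm38.p6, from 250 bases before the start to 50 after it, written on the gene's strand. Such sequences matched 5 of the 7 genes, and Spi1 and Id1 had none. Gfi1 and Irf8 had 2 each, of which the one further upstream is shown. For Gfi1 the shown one starts a 245-base exon with 1 count, in MLL-ENL preGM replicate 3. Its other promoter (chr5:107724294-107724593) starts the longest coding transcript. The first exon of that transcript held 1, 3 and 6 counts in MLL-ENL preGM and 7, 7 and 5 in WT preGM. Capitals mark matches on either strand to AAATCA (GFI1 core), GAGGAAGT (PU.1), the composite element of PU.1 with IRF, GCGNGGGCG (EGR), GGGNGTGG (KLF), GGGGCGGGG (GC box of SP and KLF factors), TGACGTCA (CRE), the TATA box and the CArG box; overlapping matches run together.
Klf4, chr4:55532426-55532725, minus strand: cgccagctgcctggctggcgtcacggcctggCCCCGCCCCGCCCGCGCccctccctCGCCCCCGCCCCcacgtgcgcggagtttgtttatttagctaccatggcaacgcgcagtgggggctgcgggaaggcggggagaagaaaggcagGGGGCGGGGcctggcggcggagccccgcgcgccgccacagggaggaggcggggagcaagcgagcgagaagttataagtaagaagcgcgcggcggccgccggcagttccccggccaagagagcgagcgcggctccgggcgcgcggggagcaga
Id2, chr12:25096043-25096342, minus strand: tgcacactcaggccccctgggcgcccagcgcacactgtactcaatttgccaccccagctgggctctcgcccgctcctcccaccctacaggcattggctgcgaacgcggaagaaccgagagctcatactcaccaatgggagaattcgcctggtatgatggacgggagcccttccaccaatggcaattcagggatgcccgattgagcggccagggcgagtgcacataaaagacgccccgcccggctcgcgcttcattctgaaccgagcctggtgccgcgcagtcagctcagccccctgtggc
Irf8, chr8:120736108-120736407, plus strand: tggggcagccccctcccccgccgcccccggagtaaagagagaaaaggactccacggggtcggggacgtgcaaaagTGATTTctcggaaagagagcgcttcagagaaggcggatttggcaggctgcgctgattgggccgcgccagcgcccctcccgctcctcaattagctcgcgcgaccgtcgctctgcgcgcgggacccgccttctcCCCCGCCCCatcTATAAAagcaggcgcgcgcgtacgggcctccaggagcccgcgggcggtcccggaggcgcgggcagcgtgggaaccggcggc
Gfi1, chr5:107725756-107726055, minus strand: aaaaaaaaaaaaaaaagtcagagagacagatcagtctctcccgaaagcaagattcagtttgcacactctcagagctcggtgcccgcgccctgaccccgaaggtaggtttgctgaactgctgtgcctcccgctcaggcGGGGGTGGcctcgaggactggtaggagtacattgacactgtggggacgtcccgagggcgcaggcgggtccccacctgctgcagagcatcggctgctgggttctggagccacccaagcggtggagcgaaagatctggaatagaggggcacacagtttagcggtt

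The Klf4 promoter was the most GC-rich of these, at 74.3%, with 3 GC boxes and 2 matches to the EGR motif, each of which overlaps a GC box. Of 32851 RefSeq promoters of this length, 11.4% held the GC box letters and 5.55% the EGR letters. The Irf8 promoter shown held TATAAA at positions -31 to -26 from its start, as 13.6% of promoters hold it somewhere. It also held a GC box just upstream and 1 GFI1 core match, which 14.0% of promoters share. The Gfi1 promoter shown held 1 KLF match (17.6% of promoters), as did the other Gfi1 promoter, at -139 to -132. The Id2 promoter held no capitals at all, which says only that these letters are not in its window. The matches describe the sequences and were not tied to the levels.

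Whether a gene's response to MLL-ENL differed between the cell types was tested as the preGM response minus the HSC response, for which 3.13% of all genes passed, 1.08% higher and 2.06% lower. Spi1, Klf4, Id2 and Id1 passed, each with a lower value in preGM. Id2 differed by -3.89 ± 0.40 on the log2 scale (adjusted p = 5.34e-05), Spi1 by -2.33 ± 0.45 (adjusted p = 0.00771) and Id1 by -1.51 ± 0.33 (adjusted p = 0.0161), which did not pass without MLL-ENL HSC replicate 3 (0.0575) or WT HSC replicate 1 (0.0542). For Spi1 the call was lost when only the exons from the main coding start onwards were counted (log2 -1.65, adjusted p = 0.0987) or only the longest coding transcript (-1.64, 0.107). Klf4 differed by -4.08 ± 1.02 (adjusted p = 0.0374), but 11 of the 12 fits that left out a library lost this call, all except the fit without WT HSC replicate 1, as did the fit without both libraries that stand apart (log2 -3.46, adjusted p = 0.0630) and that with library size as the only scaling (0.0772). Irf8 had -1.79 ± 0.52 and did not pass (adjusted p = 0.0805), though it did without MLL-ENL preGM replicate 1 (adjusted p = 0.0346), without WT HSC replicate 1 (0.00658) and without both libraries that stand apart (log2 -2.10, adjusted p = 0.0166). It also passed with no filter on low counts (0.0409), with DESeq2 (0.0189), with the longest coding transcript (0.0490) and with replicate number as a block (0.0252). Gfi1 had -0.90 ± 0.60 (adjusted p = 0.508).

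**Figure D4:**
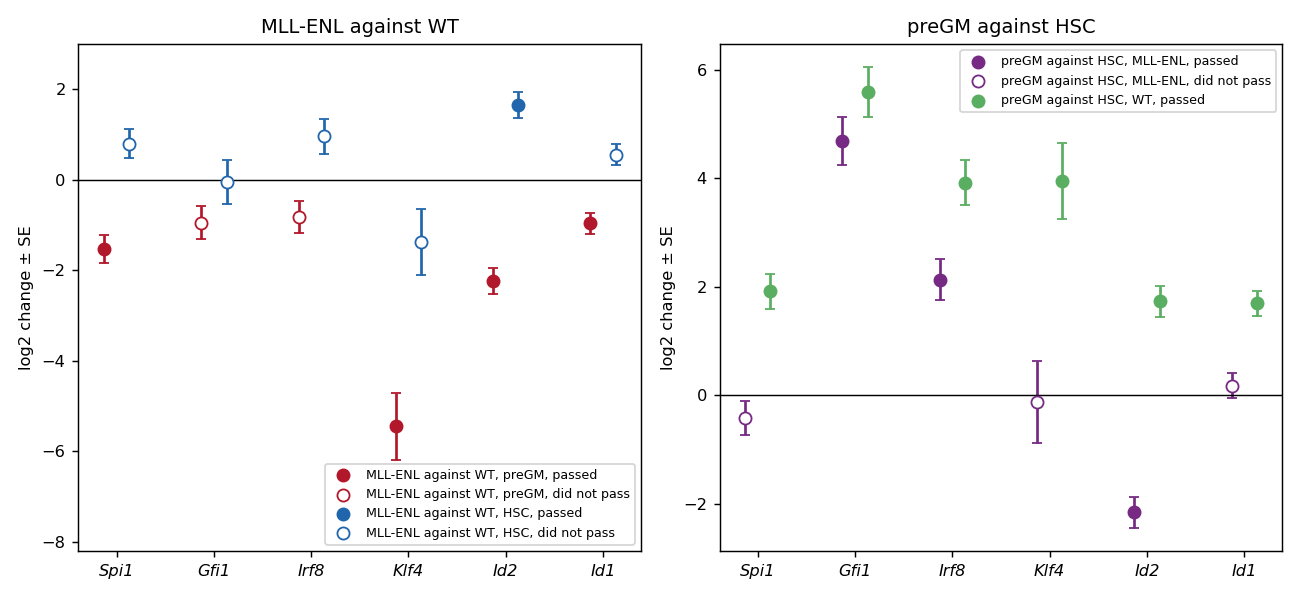
Log2 changes of the 6 tested factors with their SE, for MLL-ENL against WT (left; preGM and HSC) and for preGM against HSC (right; MLL-ENL and WT); filled points passed an adjusted p of 0.05. Left, the preGM points all lie below 0 and Id2 is the only filled HSC point, at 1.65; right, all WT points lie above 0, while with MLL-ENL only Gfi1 (4.69) and Irf8 (2.14) do so past the threshold and Id2 lies at -2.15.

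Along the step between the cell types, all 6 tested factors were higher in WT preGM than in WT HSC, a comparison in which 38.5% of all genes passed, 18.4% higher and 20.1% lower. Gfi1 rose most, by 5.59 ± 0.46 on the log2 scale (adjusted p = 2.02e-07). Klf4 rose by 3.95 ± 0.70 (adjusted p = 0.000387), Irf8 by 3.92 ± 0.41, Spi1 by 1.92 ± 0.32, Id2 by 1.73 ± 0.28 and Id1 by 1.70 ± 0.24, with no overlap between the groups for any of them, as for 48.4% of all genes. With library size as the only scaling all 6 still passed, with smaller rises for Spi1 (1.18), Id2 (1.04) and Id1 (0.98), while the median of all genes moved by -0.70. With MLL-ENL, where 41.5% of genes passed (20.4% higher, 21.1% lower) and groups did not overlap for 54.8%, 3 of the 6 changed between preGM and HSC. Gfi1 rose by 4.69 ± 0.44 (adjusted p = 1.04e-06) and Irf8 by 2.14 ± 0.37 (adjusted p = 0.000365). Id2 instead was lower in MLL-ENL preGM than in MLL-ENL HSC, by a log2 change of -2.15 ± 0.29 (adjusted p = 3.66e-05). Spi1 (-0.41 ± 0.31), Id1 (0.18 ± 0.23) and Klf4 (-0.12 ± 0.75) did not pass (adjusted p = 0.307, 0.548 and 0.908); Id1 had a negative value with library size as the only scaling and with limma, and Spi1 had a positive one when the longest coding transcript was counted (log2 0.56, adjusted p = 0.229) but passed as lower with library size as the only scaling (log2 -1.03, adjusted p = 0.0064). These comparisons share libraries with the ones between genotypes.

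The genes that work with these factors were described through lists drawn from general knowledge. Among the 9 genes reported as repressed by GFI1, which include Id1 and Id2, 4 rose and 3 fell in preGM with MLL-ENL, against 3.71% higher and 3.07% lower over all genes. Id1, Id2 and Cdkn1a, a cell cycle inhibitor (log2 -1.17, adjusted p = 0.0401), were the ones that fell; the Cdkn1a call was lost in 14 of 22 alternatives, among them library size as the only scaling (0.0882), the preGM groups fitted alone (0.123), and the fits without WT preGM replicate 2 (log2 -0.71, 0.187), without MLL-ENL preGM replicate 1 (-1.04, 0.136) and without both (-0.59, 0.237). Among the ones that rose were the homeobox genes Meis1 and Hoxa9, which are active in stem cells and in MLL-fusion leukaemia, and the immediate early gene Egr1. Meis1 had 185, 57.7 and 56.2 CPM in MLL-ENL preGM and 9.05, 8.94 and 10.2 CPM in WT preGM (log2 3.40 ± 0.39, adjusted p = 6.55e-05), with its highest value in MLL-ENL preGM replicate 1; without both libraries that stand apart the change was 2.56 (adjusted p = 1.95e-08). Hoxa9 had 45.3, 36.8 and 36.1 CPM in MLL-ENL preGM and 10.1, 8.75 and 9.14 CPM in WT preGM (log2 2.08 ± 0.22, adjusted p = 2.78e-05). The list's median log2 change was -0.78, against 0.08 over all genes tested. In HSC 2 of the 9 rose, Id2 and Egr1 (log2 2.54 ± 0.27, adjusted p = 9.05e-05), against 3.18% of all genes. Without both preGM libraries that stand apart 5 rose, in a fit where 3367 of all genes passed in HSC, against 645 in the main fit. The list's median in HSC was 0.77, against 0.02 over all genes.

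Of the 7 GFI1 partners and cofactors, among them the histone demethylase and deacetylase genes, only Gfi1b changed in preGM (6.78% of all genes passed), and none passed in HSC (4.11% of all genes). Without both preGM libraries that stand apart 2 rose and 1 fell in HSC, where 3367 of all genes then passed, against 645 in the main fit. Their median log2 changes were 0.23 in preGM and 0.14 in HSC, against 0.08 and 0.02 over all genes. The EGR and NAB genes, the macrophage side of the GFI1 antagonism, numbered 5, of which 4 could be tested, with median log2 changes of -0.76 in preGM and 1.49 in HSC. Egr1 alone passed, in both cell types, with 3.74, 2.18 and 2.84 CPM in MLL-ENL preGM against 0.926, 1.63 and 1.17 CPM in WT preGM (log2 1.26 ± 0.29, adjusted p = 0.0131; not passed without WT preGM replicate 1, 0.0882, or WT preGM replicate 3, 0.0533, with the preGM groups alone, 0.0833, or with limma on log2(RPKM + 1), 0.219). It was far more abundant in HSC, at 78.3, 54.9 and 79.1 CPM with MLL-ENL and 12.7, 12.7 and 10.95 CPM in WT.

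Among 8 further ID, E-protein and related genes, 7 of them tested, Id3 followed Id2. Id3 had 22.8, 39.6 and 39.0 CPM in MLL-ENL preGM and 68.5, 78.7 and 57.1 CPM in WT preGM (log2 -1.01 ± 0.25, adjusted p = 0.0236; not passed without WT preGM replicate 1, 0.0736, or WT preGM replicate 2, 0.0596, with library size as the only scaling, 0.0601, with limma, 0.0725 and 0.0870, or with the preGM groups alone, 0.124). In HSC it had 86.2, 113 and 127 CPM with MLL-ENL against 18, 17.8 and 18.9 CPM in WT (log2 2.57 ± 0.27, adjusted p = 7.44e-05). No libraries overlapped in either cell type, and the difference of the responses was -3.58 ± 0.36 (adjusted p = 4.33e-05). The E-protein gene Tcf4, which is prominent in plasmacytoid dendritic cells, rose in preGM to 133, 108 and 114 CPM with MLL-ENL, against 42.0, 26.2 and 45.8 CPM in WT (log2 1.64 ± 0.25, adjusted p = 0.000691). Hes1, a repressor downstream of Notch, fell in preGM (log2 -2.04 ± 0.40, adjusted p = 0.00458; 0.0900 with limma on log2(RPKM + 1)). Neither Tcf4 nor Hes1 passed in HSC. The list's median log2 change was -0.46 in preGM and 0.32 in HSC.

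**Figure D5:**
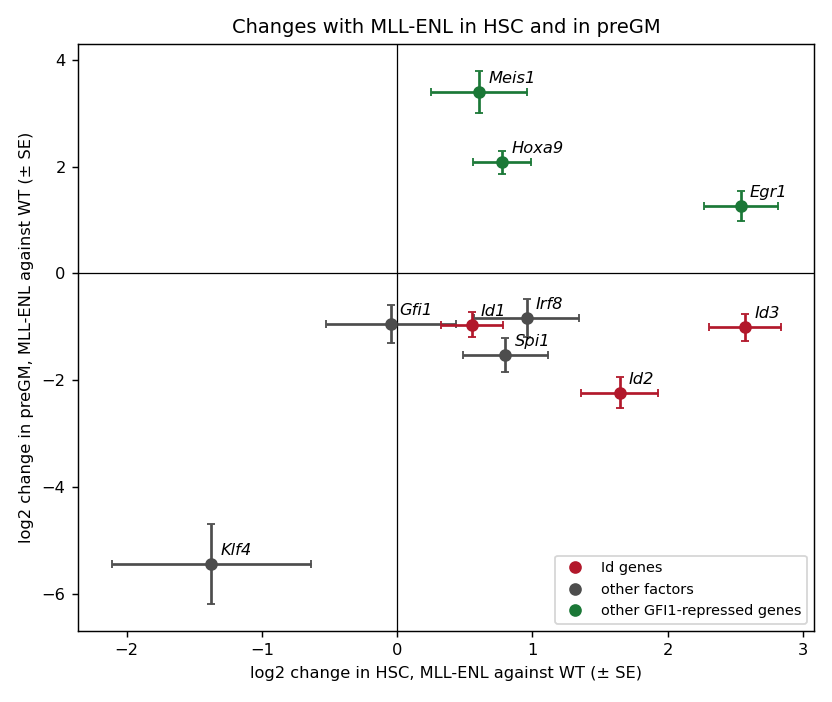
Log2 change with MLL-ENL in preGM (vertical) against that in HSC (horizontal), with SE, for the 6 tested factors, Id3 and the GFI1-repressed genes Meis1, Hoxa9 and Egr1. Cdkn1a, a GFI1-repressed gene that fell in preGM, is not plotted. The Id genes lie right of 0 in HSC and below 0 in preGM, Meis1, Hoxa9 and Egr1 lie above 0 in both, and Klf4 lies lowest at -5.45.

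Of 14 tested PU.1 target genes, 4 fell and 1 rose in preGM with MLL-ENL, against 3.07% lower and 3.71% higher over all genes. Their median log2 change was -0.21, against 0.08 over all genes, and 6 fell without both libraries that stand apart. Cybb, the NADPH oxidase subunit of phagocytes, had 9.90, 5.75 and 6.68 CPM in MLL-ENL preGM and 77.7, 130 and 92.5 CPM in WT preGM (log2 -3.74, adjusted p = 0.00567; not passed with no filter on low counts, 0.0806). The Src-family kinase gene Fgr (log2 -1.80, adjusted p = 0.0175) also fell, though it did not pass without MLL-ENL preGM replicate 1 (0.0590), MLL-ENL preGM replicate 2 (0.0511), WT preGM replicate 1 (0.0538) or WT preGM replicate 3 (0.0747), nor with library size as the only scaling (0.0637) or limma (0.0914 and 0.141). The lipopolysaccharide co-receptor gene Cd14 rose (1.79, adjusted p = 0.00852; 0.0598 with the preGM groups alone), with 54.6, 75.9 and 79.6 CPM with MLL-ENL and 25.6, 7.87 and 27.0 CPM in WT. In HSC, 3.18% of all genes passed as higher and 0.923% as lower. Of the 14, 2 rose and 1 fell there: Fgr (1.92, adjusted p = 0.0219), Itgam (1.66, adjusted p = 0.0187), of which 68.8% of exon bases overlap another gene, and Cebpa (-1.5, adjusted p = 0.0448). Each of these 3 lost its call in some alternatives, with the highest adjusted p at 0.102 for Fgr, 0.0756 for Itgam and 0.201 for Cebpa. Among the 10 IRF, ETS and other partners of PU.1, Cebpb fell in preGM (-2.47, adjusted p = 0.000893), and Irf7, an interferon-induced factor, rose in HSC (1.99, adjusted p = 0.0104), except without MLL-ENL HSC replicate 1 (0.0663).

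Genes of the mature fates were also compared in preGM, and a link between them and the factors was not tested. Of 15 granulocyte genes, 12 fell with MLL-ENL and none rose, with a median log2 change of -2.39 against 0.08 over all genes. Of all genes tested, 3.07% passed as lower and 3.71% as higher in this comparison. The secondary granule and antimicrobial genes changed most: S100a9 had 1.07, 2.21 and 2.95 CPM in MLL-ENL preGM and 807, 1143 and 666 CPM in WT preGM (log2 -8.72, adjusted p = 1.29e-08). Camp (-8.61), Ngp (-8.34) and Fcnb (-8.32) were the next. These genes are the extremes of the list. Summed over the 15 granulocyte genes, levels were 11261 to 15576 CPM in MLL-ENL preGM and 27990 to 30985 CPM in WT preGM. Of 17 tested monocyte and dendritic cell genes, 10 fell and none rose, with a median of -1.80. They included the major histocompatibility gene H2-Aa (-3.10, adjusted p = 0.000445), the lysozyme gene Lyz2 (-3.09, adjusted p = 5.15e-05), Cd74 (-2.61, adjusted p = 0.00106) and Ms4a6c (-2.43, adjusted p = 0.000345). In HSC, where 3.18% of all genes passed as higher, H2-Aa (3.25, adjusted p = 0.00148) and Cd74 (3.05, adjusted p = 0.00103) were the monocyte and dendritic cell genes that rose. Without both preGM libraries that stand apart 4 such genes rose, while 3367 of all genes passed in HSC, against 645 in the main fit. Cd74 had 42.0, 61.8 and 37.7 CPM in MLL-ENL HSC and 4.64, 5.66 and 6.77 CPM in WT HSC. From HSC to preGM in WT, 14 of the 15 granulocyte and 15 of the 17 monocyte and dendritic cell genes rose; with MLL-ENL 11 and 9 did. Of all genes tested, 18.4% passed as higher in this step in WT and 20.4% with MLL-ENL.

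Markers of other cell types were summed beside these results. The 6 mast cell and basophil markers summed to 226 to 328 CPM in MLL-ENL preGM and 1452 to 2415 CPM in WT preGM, and 3 of the 6 fell, against 3.07% of all genes. The 6 mature macrophage markers summed to 74.5 to 131 CPM with MLL-ENL and 163 to 236 CPM in WT preGM; 1 of the 4 tested fell, and none without WT preGM replicate 2. Of these, Mertk was at 0 in all WT preGM libraries and C1qa reached 0.130 CPM with MLL-ENL and 0.228 CPM in WT. The part of such cells in the lower Klf4, Spi1, Id2 and Id1 was not tested. The 9 megakaryocyte and erythroid markers summed to 234 to 277 CPM in MLL-ENL HSC against 646 to 796 CPM in WT HSC, and to 89.6 to 102 CPM in MLL-ENL preGM against 62.9 to 144 CPM in WT preGM. The 8 lymphoid markers summed to 2.82 to 5.52 CPM in MLL-ENL preGM, 1.39 to 1.70 CPM in WT preGM, 0.141 to 0.602 CPM in MLL-ENL HSC and 2.54 to 4.25 CPM in WT HSC, with Cd3e at 0 throughout, and the 6 stromal and endothelial markers reached 112 CPM in 1 MLL-ENL preGM library, against at most 33.9 CPM in WT preGM.

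Set side by side per kb of the longest coding transcript, the Id genes had the highest levels in every group. In MLL-ENL preGM they ran from Id1 (41.2 ± 9.27 CPM per kb; SD, n = 3) through Id2 (13.3 ± 4.51), Irf8 (7.18 ± 2.50), Gfi1 (5.73 ± 1.44) and Spi1 (3.62 ± 0.799) to Klf4 (0.141 ± 0.0535). Libraries of Id2 and Irf8, of Irf8 and Gfi1 and of Gfi1 and Spi1 overlapped; Id1 and Klf4 stood clear at the ends. In WT preGM the order was Id1 (80.2 ± 11.3), Id2 (62.5 ± 8.29), Irf8 (12.9 ± 0.793), Gfi1 (11.03 ± 2.27), Spi1 (10.7 ± 4.91) and Klf4 (6.10 ± 2.09). Here Id1 overlapped Id2, a gap lay between Id2 and Irf8, Irf8, Gfi1 and Spi1 overlapped one another, and Klf4 overlapped Spi1. In MLL-ENL HSC, Id2 (58.8 ± 5.92) stood above Id1 (36.3 ± 3.25) without overlap, whereas in WT HSC Id1 (24.8 ± 3.57) and Id2 (18.8 ± 4.87) overlapped. Spi1 (2.44 ± 0.260) and Irf8 (1.65 ± 0.242) followed in MLL-ENL HSC without overlap, and Spi1 (2.32 ± 0.932) and Irf8 (0.804 ± 0.502) in WT HSC with overlap. Gfi1 and Klf4 stayed below 1 CPM per kb in every HSC library. Reads gathered at the 3′ end to unlike degrees, so levels per kb of whole transcript do not treat the genes alike. In WT preGM the last exon held 91.2% of Gfi1 counts in 38.9% of its exon bases, and 76.3% of Irf8 counts in 24.0%. For Spi1 it held 26.2% of counts in 25.3% of bases.

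The genes whose profiles over the 12 libraries were most like each factor were named by the root mean square difference of log2 CPM after centring each gene. The nearest were Rhob, a small GTPase gene, to Spi1 (0.18), Dnajc24 to Id1 (0.20), Mtus1 to Irf8 (0.40), Mgll, which encodes monoglyceride lipase, to Id2 (0.44), Oosp1 to Gfi1 (0.56) and Ear2, an eosinophil ribonuclease gene, to Klf4 (0.78). The next 2 were M1ap and Limd2 for Spi1, Bax and Max for Id1, Neurl2 and Slc26a10 for Irf8, and Fgr and Gm26522 for Id2. For Gfi1 they were Mefv and Mt1, and for Klf4 the innate sensor gene Tlr13 and Sirpb1c.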

How the data were processed

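The deposited files hold 2 values for each exon, intron and transcript, per the file headers: a tag count, whole and not scaled as the authors deposited it, and RPKM, which the authors scaled by feature length and library size. The submitters' processing notes name TopHat2 2.0.8, Bowtie2 2.1.0, HTSeq and edgeR; no genome build is named there. Transcripts were matched by identifier to GENCODE M21 on GRCm38 (89571 of 93615, 95.7%), 2890 others were assigned by exon overlap and 1154 were left out. Gene counts are sums over non-overlapping exons, which hold 99.4% of exon bases. Of the 7 genes, Gfi1 shares 3.11% of its exon bases with another gene and the others share none. The deposited RPKM columns served to check library sizes.

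Counts were tested with the quasi-likelihood test of edgeR 4.0.16 in R 4.3.3, with all 12 libraries in 1 fit, TMM scaling and genes with low counts removed (filterByExpr, minimum count 10, total 15), leaving 15704 genes; p-values are two-sided and Benjamini-Hochberg adjusted over them, with a threshold of 0.05. Standard errors are the absolute log2 change over the square root of the F statistic. Single values were compared by exact two-sided permutation tests over libraries. For the ratio, 0.5 was added to counts. Alternatives were DESeq2 size factors in edgeR, library size alone, no filter, DESeq2 1.42.0, limma 3.58.1 on log2(RPKM + 0.1) and log2(RPKM + 1) computed from the counts, the longest transcript (protein-coding where any), only the groups compared, replicate number as a block, and libraries left out; splits of the Spi1 and Irf8 exons were added after seeing the data. Fits were tested on simulated data. The genes named in the text were the 7 genes, the fusion partners, up to 4 called genes of each list with the largest changes, any gene of the GFI1-repressed, GFI1 partner, EGR and ID lists, and the 3 nearest profiles; some genes of these lists are not reported here. The genes and lists were chosen with earlier results of these data known.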

Additional observations from a re-analysis of the deposited data

Results flagged for a closer look

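For 20 results among the genes named in the text, the response to MLL-ENL in preGM differed from that in HSC. The test was the interaction term of the edgeR quasi-likelihood fit, with an adjusted p under 0.05. Values are the log2 response in preGM minus the log2 response in HSC. The named genes were chosen in part as called genes with the largest changes in these same data. The count of 20 thus depends on that choice and is no rate to set against the 3.13% of all genes that passed. Among the fate factors, Id2 (-3.89), Klf4 (-4.08), Spi1 (-2.33) and Id1 (-1.51) passed. Of the other ID and related genes, Id3 (-3.58), Hes1 (-2.34) and the E-protein gene Tcf4 (1.60) did. The homeobox genes Meis1 and Hoxa9 had positive differences, 2.80 for Meis1 and 1.30 for Hoxa9.

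Of the granulocyte genes, Camp had -8.76, S100a9 -8.21, Fcnb -7.75 and Ngp -7.61. Of the monocyte and dendritic cell genes, H2-Aa had -6.35, Cd74 -5.66, Lyz2 -3.43 and Ms4a6c -2.09. The PU.1 targets Cybb and Fgr had -6.56 and -3.71. Without MLL-ENL HSC replicate 2, Cybb had -3.07 and did not pass (adjusted p = 0.146), nor did it with no filter on low counts (0.119). Cd48, an antigen of the HSC gate, had 4.93. Of 21 alternatives, Hoxa9 lost its call in 11 (adjusted p up to 0.119), Hes1 in 6 (up to 0.0688), Tcf4 in 5 (up to 0.0581), Ms4a6c in 3 (up to 0.0622), Meis1 in 1 (limma on log2(RPKM + 1), 0.126) and Fcnb in 1 (without MLL-ENL HSC replicate 2, 0.0592). Among the fate factors, Klf4 lost its call in 14 of 21 (up to 0.150) and Id1 in 2 of 21 (up to 0.0575). Spi1 lost its call in 2 of 23 alternatives, which include its exon splits (up to 0.107).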

How the results depend on the processing

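Values for the 6 tested genes and the ratio kept their direction and their side of the threshold in 650 of 712 alternative values. Id2 kept its calls in every comparison and setting, and Klf4 its call in preGM. With MLL-ENL in HSC, 1 of the 6 genes passed; 2 passed with limma on log2(RPKM + 0.1), and 3 with limma on log2(RPKM + 1), with the HSC groups fitted alone or without both preGM libraries that stand apart, and leaving out single libraries gave 1 to 2. In preGM 4 passed, with 3 to 4 over the alternatives. For the difference of responses 4 passed, but 5 with no filter and with DESeq2, 3 with library size alone or with only the Spi1 exons from the coding start onwards, and 2 to 4 with single libraries left out. The Gfi1 to Irf8 ratio difference in preGM (-0.08) was 0.56 without both libraries and ran from -0.40 to 0.41 with single ones left out. The sign of Gfi1 in HSC turned with library size alone (0.14), limma (0.24 and 0.034) and the replicate block (0.079), and ran from -0.44 to 0.96 with single libraries left out. Klf4 in HSC ran from -1.90 to 0.66 in the same way. Between preGM and HSC with MLL-ENL, Spi1 turned to 0.56 with the longest transcript and to 0.56 with only the exons from the coding start onwards. There Klf4 was 0.20 without both libraries and -0.41 to 0.42 with single ones left out, and Id1 turned to -0.42 with library size alone and to -0.34 and -0.33 with limma. The cause of these turns was not tested.

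Same-numbered libraries did not deviate together (correlations of -0.104 to 0.1, against -0.136 to 0.138 for other pairs). With 3 libraries a group, this cannot settle whether a shared number means a shared source, which the labels do not state. With replicate number as a block, Irf8 passed for the difference of responses (log2 -1.98, adjusted p = 0.0252) and Klf4 did not (log2 -4.24, adjusted p = 0.0527). Over all genes, 645 passed in HSC, with 312 to 3367 over the alternatives (3367 without both preGM libraries, 1340 with DESeq2). In preGM 1064 passed, with 566 to 1742 over the alternatives, and for the difference 492, with 299 to 1926. Library size alone moved the median of all genes by 0.19 in HSC and 0.32 in preGM for MLL-ENL against WT, and by -0.70 in WT and -0.56 with MLL-ENL for preGM against HSC (log2). Of 45 called results of other named genes, 26 kept their call in every alternative and none turned its sign. Gfi1 and Klf4 in HSC rest on at most 54 counts a library, which limits their precision.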
